A study of Mus musculus with 24 samples.

Results

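Hepatic carboxylesterases are described here by 10 genes, Ces1b, Ces1c, Ces1d, Ces1e, Ces1f, Ces1g, Ces2a, Ces2e, Ces3a and Ces3b, of the 25746 genes listed for each liver. They form a list of gene symbols that was drawn up with earlier results of these data known, without a threshold on measured values, and all 10 passed the filter on low counts. Livers of 24 mice were analysed by RNAseq, 6 each from the groups male wildtype (mWT), male knockout (mKO), female wildtype (fWT) and female knockout (fKO). All mice were aged 12 weeks and of the C57/BL6N strain. The KO mice lacked the whole major urinary protein (Mup) gene cluster, removed with CRISPR/Cas9, and the WT mice came from the same heterozygous breeding. The KO line goes back to a single male founder, so that the deletion and any other change carried by that founder cannot be told apart, and the mice had been fasted and scanned under isoflurane directly before the livers were taken.

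Carboxylesterases are serine hydrolases of the endoplasmic reticulum that cleave ester and amide bonds. In the liver they activate or inactivate ester drugs, detoxify pyrethroids and other pesticides, and mobilise stored triacylglycerol and cholesteryl esters. Most hepatic members carry a retention signal that holds them in the endoplasmic reticulum, whereas Ces1c is secreted and is the main carboxylesterase of mouse plasma, which has no counterpart in human plasma. Rodents have many tandem copies where humans have few genes.

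All members lie on chromosome 8 of the mouse genome (GRCm38). The 6 Ces1 members occupy 280581 bp on the minus strand (chr8:93056728-93337308), and the Ces2 and Ces3 members occupy 359927 bp on the plus strand (chr8:104734003-105093929). A gap of 11396694 bp separates both blocks. Over aligned coding bases, Ces3a and Ces3b were 95.27% identical, Ces1b and Ces1c 90.85%, and Ces2a and Ces2e 83.27%. Of the windows of 100 bases in the annotated transcripts, which is the read length, 194 were shared by Ces3a and Ces3b (6.88% and 7.04% of their windows) and 24 by Ces1b and Ces1c (1.29% and 1.03%). Another 200 windows of Ces2a (8.13%) were found in Gm7208. How reads from such windows were counted was not given in the sources used here, so the split of reads within these pairs is uncertain to that extent. The gene Gm45909 overlaps Ces1d on the same strand, but held 2328 counts over all libraries beside 458879 of Ces1d.

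RefSeq promoter sequences were matched for 7 of the 10 members, Ces1b, Ces1c, Ces1e, Ces1g, Ces2a, Ces2e and Ces3b. The 250 bases before the start site are shown for both close paralog pairs with entries, Ces1b and Ces1c, which were higher in females, and Ces2a and Ces2e, which were lower. Each runs 5′ to 3′ on the strand of its gene (build GRCm38.p6), at chr8:93080018-93080267 (minus strand), chr8:93131284-93131533 (minus strand), chr8:104733753-104734002 (plus strand) and chr8:104926010-104926259 (plus strand). Ces1b had a second entry with another start site (chr8:93079941-93080190), which is not shown. Capitals mark matches to the motifs named after them.
Ces1b: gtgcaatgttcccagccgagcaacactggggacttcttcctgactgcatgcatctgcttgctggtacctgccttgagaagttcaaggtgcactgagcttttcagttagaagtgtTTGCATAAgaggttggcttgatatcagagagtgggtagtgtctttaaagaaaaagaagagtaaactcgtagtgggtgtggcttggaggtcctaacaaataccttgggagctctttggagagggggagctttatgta
Ces1c: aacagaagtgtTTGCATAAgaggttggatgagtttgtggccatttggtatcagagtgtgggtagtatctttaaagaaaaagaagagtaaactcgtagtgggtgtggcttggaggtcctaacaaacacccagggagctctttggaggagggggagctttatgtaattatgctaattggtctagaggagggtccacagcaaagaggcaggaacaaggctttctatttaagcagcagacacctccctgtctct
Ces2a: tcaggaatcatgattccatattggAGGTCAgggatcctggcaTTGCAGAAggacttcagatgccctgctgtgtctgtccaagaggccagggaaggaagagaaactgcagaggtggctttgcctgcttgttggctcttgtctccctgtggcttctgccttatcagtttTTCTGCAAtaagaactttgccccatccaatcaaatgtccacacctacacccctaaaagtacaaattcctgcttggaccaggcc
Ces2e: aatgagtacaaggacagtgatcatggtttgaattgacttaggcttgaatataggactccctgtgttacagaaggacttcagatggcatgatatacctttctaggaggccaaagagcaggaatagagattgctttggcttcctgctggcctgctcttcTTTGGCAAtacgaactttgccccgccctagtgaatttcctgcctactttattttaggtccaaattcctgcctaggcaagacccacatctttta

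The C/EBP-type motif TTGCNNAA was searched on both strands and occurred in 9.56% of the 32851 promoters of the same length. It was present as TTGCATAA in Ces1b at position -136 (-213 in the entry not shown) and in Ces1c at position -239 from the start site. It also occurred in Ces2a at -208 and, on the opposite strand, at -83, and in Ces2e at -93 on the opposite strand. The nuclear receptor half-site AGGTCA, found in 14.0% of promoters, occurred in Ces2a at -226. The longest run of identical bases was 58 between the Ces1b and Ces1c windows and 17 between the Ces2a and Ces2e windows. Among the members not shown, TATAAA (12.4% of promoters) occurred in Ces3b at -30 and on the opposite strand in Ces1g at -26, and the HNF1 half-site GTTAAT (6.43% of promoters) in Ces3b at -56. The STAT5/BCL6-type motif TTCNNNGAA (7.02% of promoters) and the HNF4-type motif CAAAGTCCA (0.384% of promoters) were not among the letters of any of these windows. The matches did not overlap. These are matches of letters and not measured binding sites.

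Libraries held 15361901 to 26261394 counts. Mup reads summed to 272548 to 741314 counts in mWT and 70768 to 110248 in fWT, but to at most 10 in mKO and 11 in fKO, and 3 of the 12 KO libraries had any. The Y-linked genes Ddx3y, Eif2s3y and Kdm5d had no count in any female, and Uty had at most 2 counts in an fKO library and none in fWT, beside at least 16.4 CPM in every male, so the sexes matched the labels. The hepatocyte markers Alb, Apoa1, Ttr and Fgb summed to 83070 to 139300 CPM (counts scaled to a common library size), while markers of pancreas, adipocytes and kidney summed to at most 0.165 CPM. Intestinal markers, nearly all of it Fabp2, summed to medians of 58.8, 80.9, 52.2 and 60.8 CPM in mWT, mKO, fWT and fKO (ranges 42.7 to 85.2, 54.6 to 111, 40.9 to 73.0 and 50.9 to 67.9). The other intestinal markers, Vil1 and Lct, reached at most 0.439 and 0.0584 CPM in any mouse. Because whole liver was sequenced, fewer cells of a type and less RNA per cell cannot be told apart. Beside the sex comparisons it has to be kept in view that the summed Kupffer cell markers (5 genes, none at 0) had medians of 95.9, 87.7, 152 and 121 CPM in mWT, mKO, fWT and fKO, with ranges of 65.7 to 131, 63.4 to 176, 118 to 219 and 98.0 to 178. The endothelial markers (5 genes, none at 0) had medians of 118, 119, 152 and 140 CPM (ranges 112 to 136, 113 to 138, 126 to 168 and 117 to 169). The stellate cell markers (5 genes, none at 0) had medians of 212, 210, 263 and 252 CPM (ranges 154 to 284, 157 to 227, 232 to 302 and 201 to 305). Markers of pericentral hepatocytes (5 genes, none at 0) had medians of 9667, 9662, 11590 and 11240 CPM, with ranges of 7592 to 11390, 8954 to 11280, 9418 to 13630 and 10050 to 13650. Markers of periportal hepatocytes (5 genes, none at 0) had medians of 6376, 6730, 5669 and 5723 CPM (ranges 4873 to 7704, 4776 to 7092, 4671 to 7190 and 4880 to 7279). Only 1 of the 5, Cyp2f2, passed an adjusted p of 0.05 between the sexes by edgeR. It was lower in females, with 1313 ± 147 CPM in mWT, 1420 ± 198 in mKO, 806 ± 95.3 in fWT and 833 ± 135 in fKO. Hal and Gls2 had higher means in females, with 381 and 369 CPM in mWT, 492 and 385 in mKO, 493 and 404 in fWT and 512 and 415 in fKO. The bile duct markers (5 genes, none at 0) had medians of 35.6, 36.8, 44.9 and 45.7 CPM (ranges 30.4 to 40.1, 30.8 to 47.0, 36.0 to 56.3 and 39.2 to 53.4). By edgeR, markers of other lists were also called between the sexes, beside 17.3% of all genes in WT and 14.4% in KO mice. Higher in females in WT and KO mice were 3 and 0 Kupffer cell, 2 and 1 endothelial and 1 and 2 stellate cell markers. For pericentral hepatocytes these counts were 2 and 1, and for bile duct 1 and 0. Among hepatocyte markers 1 was lower in fKO than in mKO. The part of these markers in the results was not tested.

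Per kilobase of exon, Ces1c was the most abundant member in every group, with 1206 ± 27.7 CPM per kb in mWT, 1267 ± 95.3 in mKO, 2167 ± 132 in fWT and 2202 ± 125 in fKO (SD, n = 6 each). In both male groups Ces3a came next, with 882 ± 73.3 CPM per kb in mWT and 876 ± 134 in mKO, and its range was apart from both neighbours in the order. In females Ces1d and Ces3a followed, at 440 ± 79.2 and 432 ± 69.7 CPM per kb in fWT, and could not be separated, as their ranges overlapped. The other members followed without a clear order, since most neighbours overlapped, down to Ces1b in males (59.4 ± 14.1 CPM per kb in mWT) and Ces2e in females (66.0 ± 12.8 in fWT). Where the length of the longest coding transcript was used instead, which was chosen after seeing the data, Ces3a stood before Ces1d in females and Ces1f moved up to the 4th or 5th place in all groups.

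**Figure D1:**
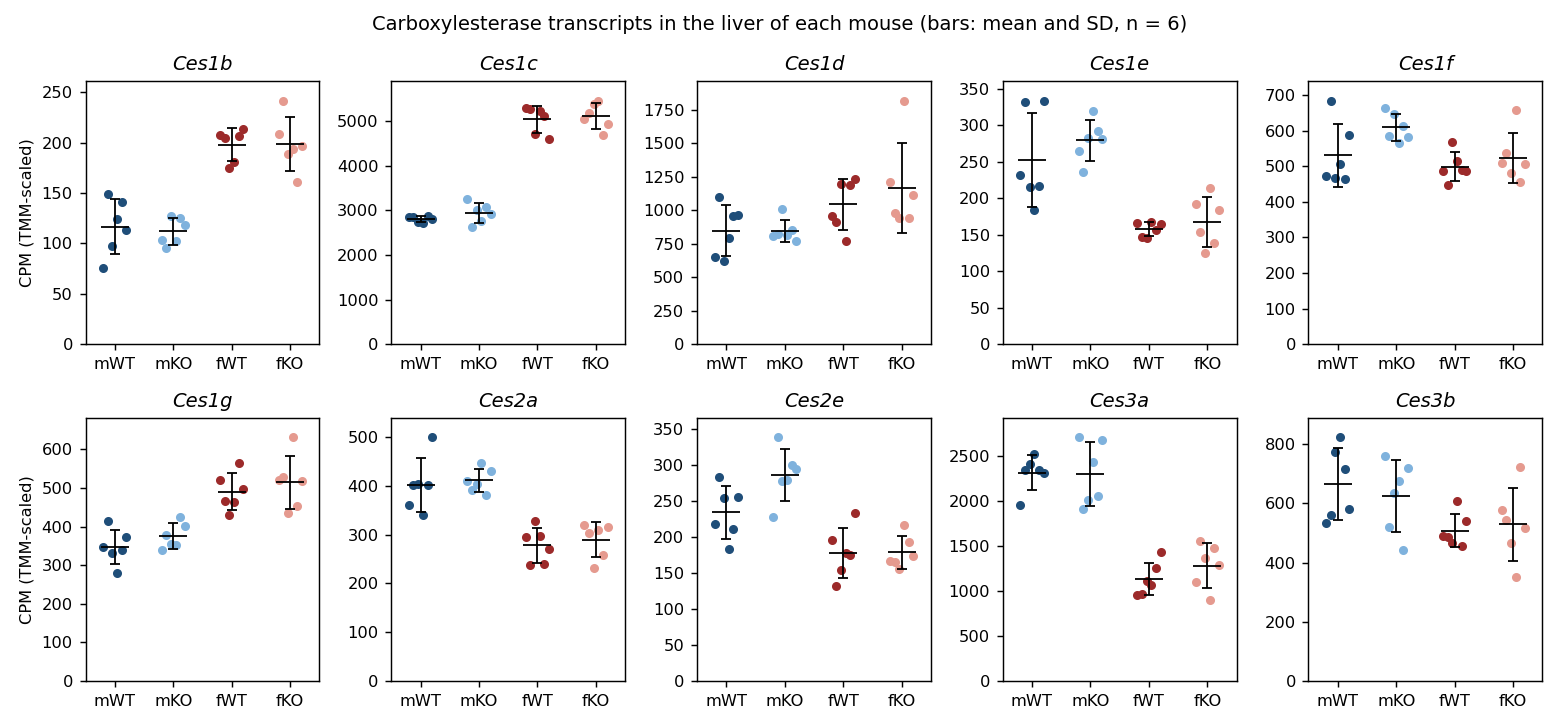
CPM (TMM-scaled, linear axis from 0) of each member in each mouse, with 1 point per mouse, horizontal bars for the mean and vertical bars for the SD (n = 6 per group). Points of males and females of the same genotype are apart for Ces1b, Ces1c, Ces1e, Ces1g, Ces2a and Ces3a, whereas points of WT and KO mice of the same sex overlap in every panel.

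The largest differences were between the sexes. By edgeR's quasi-likelihood test, 7 of the 10 members passed an adjusted p of 0.05 in fWT against mWT, 3 higher and 4 lower, beside 17.3% of the 12330 genes tested (8.81% higher and 8.51% lower). In fKO against mKO 8 passed, 4 higher and 4 lower, beside 14.4% of all genes (7.13% higher and 7.26% lower). This comparison shares no mouse with the former one, but both rest on the same fit to all 24 libraries. The values of all 6 mice of one sex lay apart from those of the other for 6 members in WT (7.70% of all genes) and 7 in KO mice (7.26% of all genes). The median log2 fold change of the members was -0.24 in WT and -0.23 in KO mice, beside 0.00 over all genes in both. All members called higher (3 in WT and 4 in KO mice) lay in the Ces1 block, where Ces1e was the only one called lower, and the 3 called in the block of Ces2 and Ces3 were all lower in both genotypes.

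Ces1c, the secreted plasma carboxylesterase, was higher in females. Its expression ranged from 2720 to 2867 CPM (median 2816) in mWT and from 2629 to 3244 CPM (median 2970) in mKO. In females it ranged from 4588 to 5300 CPM (median 5169) in fWT and from 4680 to 5457 CPM (median 5119) in fKO. No female overlapped with any male, and the 6 mWT mice were the most alike of all groups, with a coefficient of variation of 2.30%. The log2 fold change was 0.85 ± 0.06 (SE, adjusted p = 1.92e-10) in WT and 0.80 ± 0.06 (adjusted p = 7.46e-10) in KO mice, which is 1.80-fold and 1.74-fold.

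Ces1b, its closest paralog in the Ces1 block, was far less abundant and was higher in females as well. Expression ranged from 75.2 to 149 CPM (median 119) in mWT, from 95.7 to 127 CPM (median 111) in mKO, from 175 to 214 CPM (median 205) in fWT and from 161 to 242 CPM (median 195) in fKO. All females lay above all males. The log2 fold change was 0.76 ± 0.12 (adjusted p = 6.70e-05) in WT and 0.83 ± 0.12 (adjusted p = 2.45e-05) in KO mice.

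Ces1d, Ces1f and Ces1g are triacylglycerol hydrolases of the endoplasmic reticulum, and only Ces1g passed the test in both comparisons of the sexes. Ces1g ranged from 281 to 414 CPM (median 343) in mWT and from 431 to 565 CPM (median 482) in fWT, and from 340 to 426 CPM (median 367) in mKO and from 436 to 632 CPM (median 520) in fKO. Females were above males without overlap in both genotypes, with log2 fold changes of 0.50 ± 0.09 (adjusted p = 0.000409) in WT and 0.45 ± 0.09 (adjusted p = 0.00112) in KO mice. Ces1d, the best studied lipid-mobilising member, ranged from 621 to 1099 CPM (median 874) in mWT, from 767 to 1008 CPM (median 819) in mKO, from 772 to 1235 CPM (median 1071) in fWT and from 943 to 1817 CPM (median 1046) in fKO. The groups overlapped, and it passed the test only in KO mice, where the log2 fold change was 0.47 ± 0.16 (adjusted p = 0.0482), beside 0.30 ± 0.16 (adjusted p = 0.202) in WT mice. The call for Ces1d was near the threshold, and without fKO mouse 4 the log2 fold change was 0.30 (adjusted p = 0.156). The call was lost without mKO mouse 1, 2, 4, 5 or 6 or fKO mouse 1 or 6 (log2 fold change 0.44 to 0.48). The same held without mWT mouse 4, 5 or 6 or fWT mouse 1, 2, 3 or 5, mice outside this comparison. Without those WT mice the log2 fold change stayed at 0.47, as they enter only through the shared fit. In all these other cases the adjusted p by edgeR was 0.0513 to 0.0915. The difference between the values of KO and WT mice was not past the threshold either (interaction, the KO effect in males minus that in females, -0.17 ± 0.22, adjusted p = 0.940). Ces1f ranged from 466 to 685 CPM (median 490) in mWT, from 567 to 663 CPM (median 599) in mKO, from 447 to 568 CPM (median 487) in fWT and from 456 to 657 CPM (median 507) in fKO. The sexes overlapped, and the log2 fold change was -0.09 ± 0.09 (95% confidence interval -0.29 to 0.10, adjusted p = 0.556) in WT and -0.22 ± 0.09 (-0.41 to -0.02, adjusted p = 0.128) in KO mice.

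Ces1e, known as egasyn for holding beta-glucuronidase in the endoplasmic reticulum, was lower in females. It ranged from 183 to 334 CPM (median 224) in mWT, from 236 to 320 CPM (median 282) in mKO, from 146 to 168 CPM (median 160) in fWT and from 125 to 214 CPM (median 168) in fKO. Every female lay under every male of the same genotype. The log2 fold change was -0.68 ± 0.13 (adjusted p = 0.000793) in WT and -0.74 ± 0.13 (adjusted p = 0.000312) in KO mice.

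Both Ces2 members were lower in females. Ces2a, a hydrolase of acylglycerols, ranged from 340 to 500.3 CPM (median 402) in mWT, from 382 to 448 CPM (median 408) in mKO, from 238 to 328 CPM (median 284) in fWT and from 233 to 320 CPM (median 307) in fKO. The sexes did not overlap in either genotype, with log2 fold changes of -0.53 ± 0.10 (adjusted p = 0.000251) and -0.50 ± 0.10 (adjusted p = 0.000443). Ces2e, a pyrethroid-cleaving esterase, ranged from 183 to 283 CPM (median 237) in mWT, from 229 to 339 CPM (median 287) in mKO, from 132 to 233 CPM (median 176) in fWT and from 156 to 217 CPM (median 171) in fKO. WT mice of both sexes overlapped and KO mice did not. The log2 fold change was -0.40 ± 0.12 (adjusted p = 0.0218) in WT and -0.68 ± 0.12 (adjusted p = 0.000196) in KO mice. The WT call was lost without mWT mouse 2 (adjusted p = 0.0599), mWT mouse 6 (0.0505), fWT mouse 2 (0.0572) or fWT mouse 3 (0.0539). The difference between both values, tested as the interaction of KO and sex, was 0.28 ± 0.17 (adjusted p = 0.880).

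Ces3a and Ces3b are close paralogs expressed mainly in the liver. Ces3a was lower in females, and Ces3b did not pass the test. Ces3a ranged from 1952 to 2522 CPM (median 2347) in mWT, from 1916 to 2711 CPM (median 2247) in mKO, from 960.1 to 1435 CPM (median 1092) in fWT and from 895 to 1561 CPM (median 1329) in fKO. No female reached a male. The log2 fold change was -1.03 ± 0.12 (adjusted p = 9.53e-07) in WT, which is 0.490-fold, and -0.84 ± 0.12 (adjusted p = 1.75e-05) in KO mice. Ces3b ranged from 535 to 824 CPM (median 649) in mWT, from 442 to 760.2 CPM (median 654) in mKO, from 458 to 609 CPM (median 488) in fWT and from 352 to 724 CPM (median 530.2) in fKO. The sexes overlapped, and the log2 fold change was -0.39 ± 0.15 (adjusted p = 0.0701) in WT and -0.24 ± 0.15 (adjusted p = 0.295) in KO mice. The difference between Ces3a and Ces3b was not tested itself, but the ratio of their CPM was 3.55 ± 0.474 in mWT, 3.73 ± 0.489 in mKO, 2.25 ± 0.407 in fWT and 2.47 ± 0.422 in fKO, and the ratios of males (3.06 to 4.65) and females (1.75 to 2.93) did not overlap. The ratio takes for granted that reads of both genes were told apart. The WT value of Ces3b passed the test without mWT mouse 1 (adjusted p = 0.0443), fKO mouse 4 (0.0438) or fKO mouse 5 (0.0483).

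**Figure D2:**
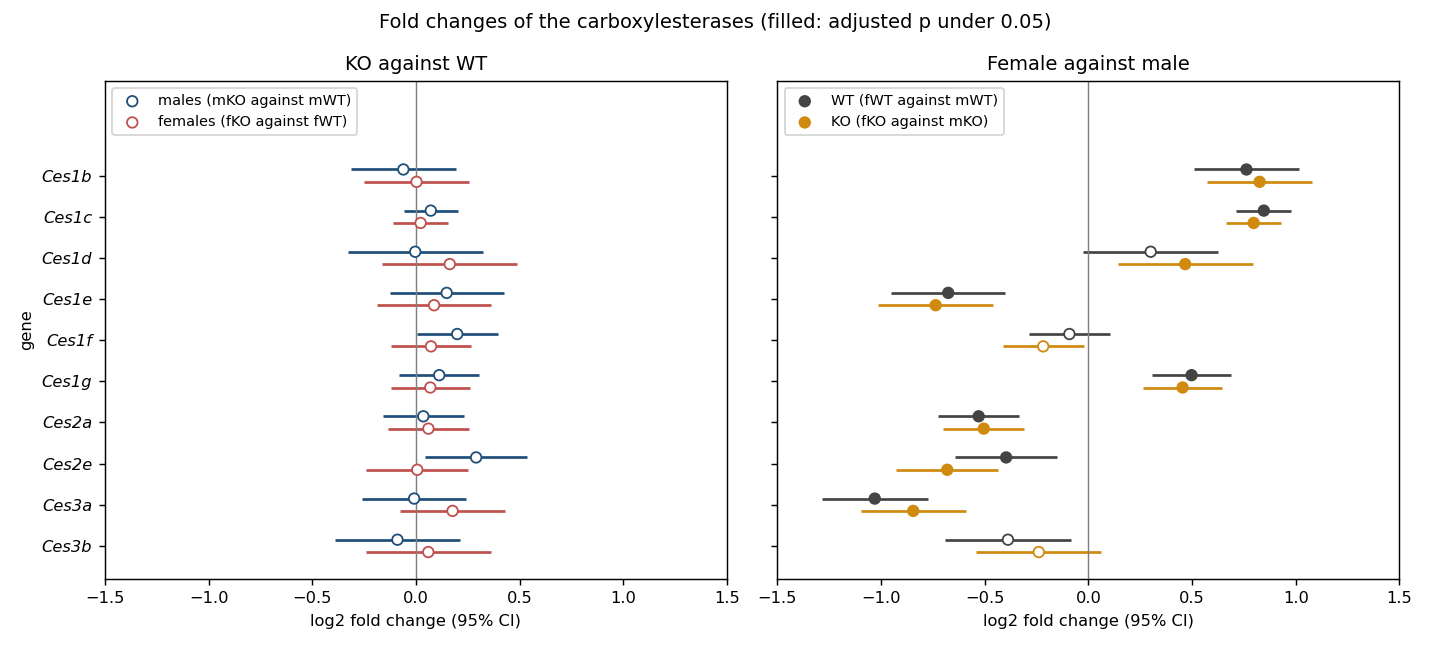
Log2 fold change of each member with its 95% confidence interval, KO against WT in males and females (left) and females against males in WT and KO mice (right), where filled points passed an adjusted p of 0.05. On the left no point is filled and values lie between -0.09 and 0.29, whereas on the right 7 points of WT and 8 of KO mice are filled, from -1.03 to 0.85.

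In sum the members took 0.848% ± 0.0489 of all counts in mWT, 0.868% ± 0.0443 in mKO, 0.975% ± 0.0200 in fWT and 0.987% ± 0.0383 in fKO. The sum was 8512 ± 495 CPM in mWT and 9520 ± 221 CPM in fWT, and in KO mice 8791 ± 554 CPM in males and 9967 ± 443 CPM in females. The make-up of this sum differed more than its size. Ces1c made up 33.0% ± 2.05 of it in mWT and 33.5% ± 1.67 in mKO, but 52.9% ± 3.49 in fWT and 51.3% ± 1.96 in fKO. Ces3a made up 27.2% ± 1.80 in mWT, 26.1% ± 2.65 in mKO, 11.9% ± 1.76 in fWT and 12.9% ± 2.76 in fKO. For each Ces3a read there were 1.22 ± 0.129 Ces1c reads in mWT and 4.56 ± 0.895 in fWT. The summed Ces2 members held 636 ± 82.2 CPM in mWT and 456 ± 52.5 CPM in fWT, and the summed Ces3 members 2981 ± 296 and 1642 ± 196 CPM. Such sums do not change with the split of reads between members of the same subfamily, but they would change if shared reads were discarded, and the Ces2 sum also with the split between Ces2a and Gm7208.

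**Figure D3:**
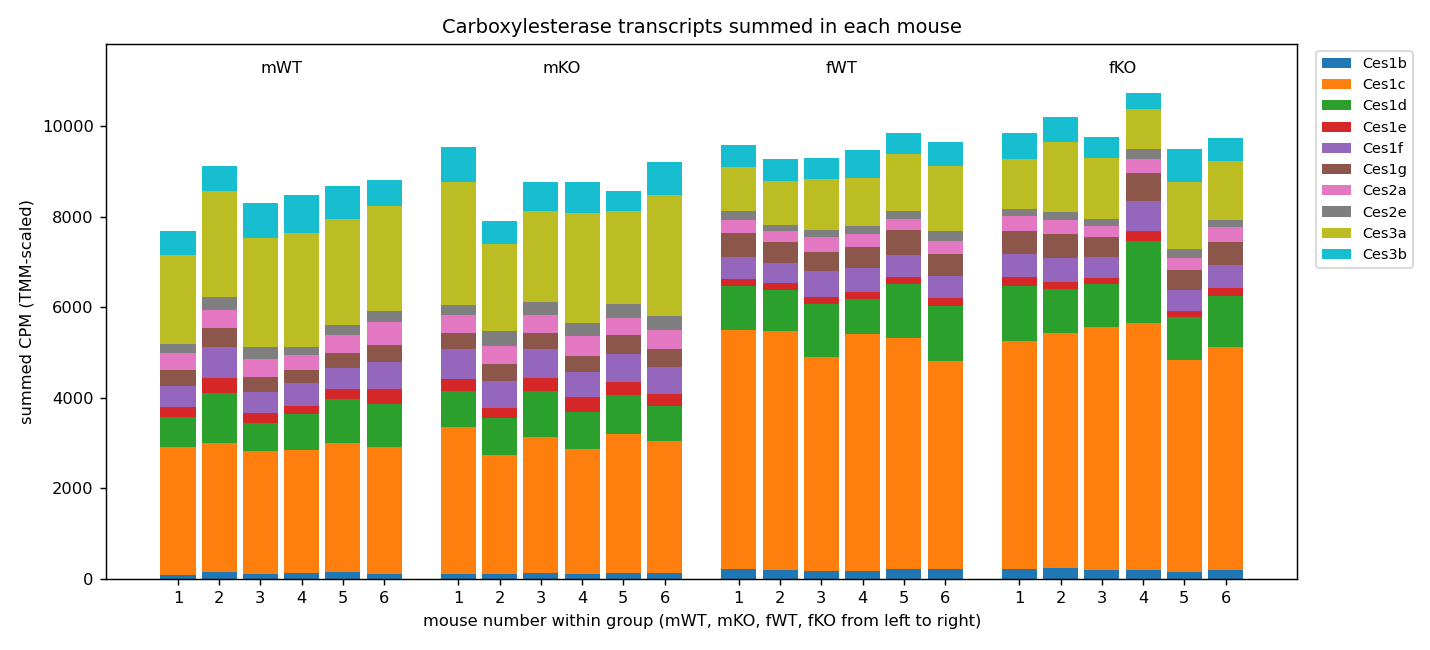
CPM of the 10 members stacked in each of the 24 mice (1 bar per mouse, 6 mice per group, linear axis from 0). The Ces1c layer takes 47.5% to 56.8% of the bar in fWT and 31.3% to 37.0% in mWT, and the Ces3a layer is thinner in females.

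No member passed an adjusted p of 0.05 in mKO against mWT or in fKO against fWT by edgeR's quasi-likelihood test, beside 0.211% and 0.0892% of all genes, nor by DESeq2. At the cut-off of an unadjusted p under 0.01 used for this series, 0 members were found in either sex, beside 3.52% of all genes in males and 0.876% in females. At an unadjusted p under 0.05, there were 2 members in males, beside 10.6% of all genes, and 0 in females, beside 4.87%, and DESeq2 gave the same numbers. These unadjusted counts moved with single mice. Under 0.01 there were 2 members in males without mWT mouse 2 and 1 without mKO mouse 1, and under 0.05 there were 0 in males without mWT mouse 4, 1 in males without any 1 of 12 other mice (mWT 1, 3 or 5, mKO 1, 2, 3 or 5, fWT 1, 5 or 6, fKO 2 or 6), and 1 in females without fWT mouse 6 or fKO mouse 4. WT and KO mice overlapped for all 10 members in both sexes. Only 1.09% of all genes in males and 0.349% in females had ranges that did not overlap, so overlap was the rule for other genes as well. These shares of all genes include the deleted Mup genes. With the Mup genes removed, edgeR called 2 of 12332 genes at an adjusted p of 0.05 in males and 0 in females.

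The 2 members under 0.05 in males were Ces2e, with a mean of 234 ± 36.5 CPM in mWT and 287 ± 36.0 CPM in mKO (log2 fold change 0.29 ± 0.12, adjusted p = 0.366 by edgeR), and Ces1f, with 531 ± 88.5 and 610 ± 38.5 CPM (0.20 ± 0.09, adjusted p = 0.462). All 6 mKO mice lay above the mWT median for Ces1f and 5 of 6 for Ces2e. In females both were nearer to 0, at 0.01 ± 0.12 for Ces2e and 0.07 ± 0.09 for Ces1f. Over the 10 members the 95% confidence intervals ran from -0.39 (Ces3b) to 0.54 (Ces2e) in males and from -0.25 (Ces1b) to 0.49 (Ces1d) in females. For Ces1c, the most precise, the interval was -0.06 to 0.20 in males and -0.11 to 0.15 in females. Log2 fold changes were above 0 for 6 of 10 members in males (median 0.05) and for 10 of 10 in females (0.00 to 0.18, median 0.06), beside medians of 0.00 over all genes, and the 10 values come from the same mice.

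The interaction of KO and sex passed for 0 members by edgeR and by DESeq2, beside 0.00811% of all genes, with 0 members at an unadjusted p under 0.01 (1.16% of all genes) or 0.05 (5.96% of all genes). Its lowest adjusted p was 0.880, for Ces2e, and values ran from -0.19 (Ces3a) to 0.28. The KO effect averaged over both sexes passed for 0 members by both tools, beside 0.170% of all genes, with 0 members under 0.01 (2.83% of all genes) and 0 under 0.05 (9.57% of all genes) by edgeR and 1 under 0.05 by DESeq2. Leaving out mWT mouse 2 gave 1 member under 0.01 and 2 under 0.05 in this average, and 1 was under 0.05 without any 1 of 8 other mice (mWT 6, mKO 1, 4 or 6, fWT 3 or 6, fKO 3 or 5). For the interaction, 1 member was under 0.05 without fWT mouse 2. In this average Ces2e had the highest value, 0.15 ± 0.08 (adjusted p = 0.596), and Ces1f followed with 0.14 ± 0.07 (adjusted p = 0.525).

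Within groups, some members rose and fell together from mouse to mouse. Each group's mean was removed from log2(CPM + 1), and Pearson's r and Spearman's rho were computed for all 45 pairs over 24 mice, with two-sided permutation tests (100000 resamples within groups) and Benjamini-Hochberg adjustment over the 45 pairs. An adjusted p under 0.05 was reached by r for 6 pairs and by both r and rho for 0 pairs. In all, r was positive for 28 and negative for 17 pairs, with a median of 0.244. Libraries of the same mouse share depth and composition, which can move pairs of genes together. Pairs of other genes were not tested in this way, so no share over all genes stands beside these counts.

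The highest value was that of Ces1e and Ces1g (r = 0.729, p = 0.00031, adjusted p = 0.0139, and rho = 0.638, p = 0.00263, adjusted p = 0.0564, by permutation). Ces1e was lower and Ces1g higher in females, yet within groups they moved together, with r = 0.712 among males and 0.764 among females. It was 0.683 without the 2 mice farthest from the median of Ces1e. In each pair the 2 mice left out were chosen by the gene named first alone, so they can differ between pairs. Mice extreme in the other gene stayed in. The lipid hydrolases Ces1d and Ces1f followed (r = 0.684, p = 0.00255, adjusted p = 0.0258, and rho = 0.590, p = 0.00769, adjusted p = 0.0692, by permutation), but r fell to 0.454 without 2 mice. Across the blocks, Ces1e and Ces2a had r = 0.650 (adjusted p = 0.0258) and rho = 0.623 (adjusted p = 0.0564), and Ces1g and Ces2e had r = 0.615 (adjusted p = 0.0258) and rho = 0.610 (adjusted p = 0.0564), by the same permutation test. Ces3a and Ces3b had r = 0.613 (adjusted p = 0.0336) and rho = 0.574 (adjusted p = 0.0640). The opposite was seen for Ces1g and Ces3b, with r = -0.630 (adjusted p = 0.0258), rho = -0.533 (adjusted p = 0.0933), -0.721 among males and -0.540 among females. The other pairs among Ces1d, Ces1e, Ces1f and Ces1g did not pass, and without 2 mice r moved from 0.639 to 0.484 for Ces1e and Ces1f, from 0.566 to 0.365 for Ces1d and Ces1e, from 0.530 to 0.265 for Ces1d and Ces1g and from 0.471 to 0.0977 for Ces1f and Ces1g. Without 2 mice r was 0.624 for Ces1e and Ces2a, 0.486 for Ces1g and Ces2e, 0.514 for Ces3a and Ces3b, and -0.481 for Ces1g and Ces3b.

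The fKO mouse 4, which is among the 24 mice of these correlations, had the highest Ces1c (5457 CPM), Ces1d (1817 CPM), Ces1e (214 CPM), Ces1f (657 CPM), Ces1g (632 CPM) and Ces2e (217 CPM) of the fKO group, and the lowest Ces3a (895 CPM) and Ces3b (352 CPM).

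**Figure D4:**
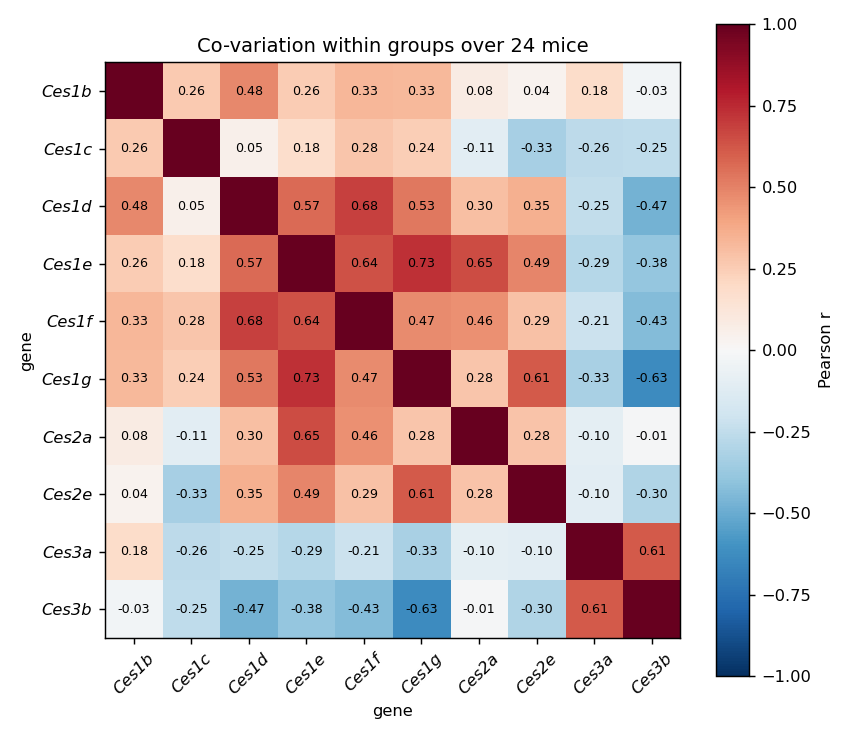
Pearson's r between members over 24 mice after removal of group means, from -1 (blue) to 1 (red). The 6 pairs of Ces1d, Ces1e, Ces1f and Ces1g are all positive, from 0.47 to 0.73, of which 2 passed the test, and Ces3a and Ces3b have mostly negative values with the others.

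Of 9 other carboxylesterase genes, 4 passed the filter on low counts, Ces2b only through males. Of these 4, 3 were called lower in females in both genotypes, beside 8.51% of all genes in WT and 7.26% in KO mice. Ces2c, a further Ces2 esterase, ranged from 51.4 to 131 CPM in mWT, from 64.3 to 117 in mKO, from 17.3 to 38.0 in fWT and from 17.3 to 39.6 in fKO. Its log2 fold change between the sexes was -1.70 ± 0.23 (adjusted p = 1.48e-05) in WT and -1.54 ± 0.23 (adjusted p = 4.91e-05) in KO mice. Ces4a fell in the same way, from 4.98 ± 2.27 CPM in mWT to 1.20 ± 0.588 in fWT (adjusted p = 0.000143) and from 3.86 ± 1.40 in mKO to 1.12 ± 0.485 in fKO (adjusted p = 0.000914). Ces2b was near the limit of detection in females, with at most 5 counts per library, and had 0.312 to 4.61 CPM in mWT and 0.105 to 1.75 CPM in mKO. Females reached at most 0.255 CPM, under the filter of 0.66 CPM. Passing only through males favoured a lower value in females, so no adjusted p is given for Ces2b. Ces2g had means from 50.8 ± 4.25 CPM in mKO to 57.9 ± 7.81 CPM in fWT, and passed in neither comparison of the sexes. None of these 4 passed in mKO or fKO mice against WT by edgeR, where 1 in males (Ces2b) and 0 in females had an unadjusted p under 0.05, beside 10.6% and 4.87% of all genes. Ces1a reached at most 15 counts, Ces2h 18, Ces1h 2 and Ces2f 1 in any library, and Ces5a had none.

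Among 20 other esterases and lipid hydrolases of the liver, 4 were higher and 2 lower in fWT, and 3 higher and 1 lower in fKO, than in males of the same genotype, beside 17.3% of all genes in WT and 14.4% in KO mice. Butyrylcholinesterase (Bche), a plasma esterase, was higher in both, with 150.1 ± 13.7 CPM in mWT, 159 ± 22.9 in mKO, 254 ± 32.3 in fWT and 285 ± 45.3 in fKO (adjusted p = 8.28e-06 and 2.15e-06). Paraoxonase 1 (Pon1), carried on high-density lipoprotein, and hepatic lipase (Lipc) were higher in females too, with log2 fold changes of 0.71 ± 0.10 and 0.68 ± 0.09 in WT and 0.49 ± 0.10 and 0.40 ± 0.09 in KO mice. Abhd5, the co-activator of adipose triglyceride lipase, was lower (-0.34 ± 0.08 in WT and -0.26 ± 0.08 in KO mice, adjusted p = 0.00237 and 0.0192). Cmbl (higher) and Pon2 (lower) passed the test in WT mice but not in KO mice, and the difference between genotypes was not past the threshold for either. None of the 20 passed in KO against WT mice by edgeR, where 3 in males and 3 in females had an unadjusted p under 0.05, beside 10.6% and 4.87% of all genes. At an unadjusted p under 0.01 there were 2 in males, Lipa and Lipc, and 0 in females, beside 3.52% and 0.876% of all genes. The KO effect averaged over both sexes passed for 0 of the 20, with 2 under 0.01 and 6 under 0.05, beside 2.83% and 9.57% of all genes. Lipa, the lysosomal acid lipase, had the lowest p in males, with 218 ± 27.6 CPM in mWT and 272 ± 29.5 in mKO (adjusted p = 0.173). Its log2 fold change was 0.23 ± 0.09 in females (adjusted p = 0.929) and 0.27 ± 0.07 in the average (adjusted p = 0.129), by edgeR.

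Of 14 nuclear receptors and other transcription factors linked to carboxylesterase genes, Nr1i3 and Cux2 were higher in females in both genotypes and 12 passed in neither, where 17.3% of all genes passed in WT and 14.4% in KO mice. Nr1i3, the constitutive androstane receptor, a xenobiotic sensor, had 247 ± 96.0 CPM in mWT, 194 ± 41.5 in mKO, 443 ± 106 in fWT and 370 ± 79.1 in fKO (adjusted p = 0.0144 and 0.00824). Cux2, a female-specific repressor in mouse liver, had 9.40 to 42.8 CPM in fWT and 10.9 to 35.7 CPM in fKO, but at most 0.454 CPM in males. Cux2 passed the filter of 0.66 CPM only through females, which favoured a higher value there, so no adjusted p is given. None of the 14 passed in KO against WT mice by edgeR, where 1 in males (Ppara) and 0 in females had an unadjusted p under 0.05, beside 10.6% and 4.87% of all genes.

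For each member called in WT mice, the 3 genes outside the carboxylesterases with the most similar pattern over the 24 libraries were sought, by the root mean square difference of mean-centred log2(CPM + 1). This search used the sex differences themselves, so it describes them only. For Ces1c these were Gm21973 (0.103), the mannose-binding lectin Mbl2 (0.138) and complement component C3 (0.162), against an SD of 0.418 for Ces1c itself. For Ces3a they were the peroxisomal glycolate oxidase Hao1 (0.195), the aldehyde oxidase Aox1 (0.207) and Hsd3b3 (0.225), against an SD of 0.520. Hao1 was lower in females by a log2 fold change of -0.98 in WT and -0.90 in KO mice. Ces1b was most like Ybx3 (0.174), the monooxygenase Fmo1 (0.190) and Pon1 (0.230). Ces1g was most like Ugt1a5 (0.119), the mitochondrial pyruvate carrier Mpc1 (0.121) and Ugt1a8 (0.123), where the Ugt1a genes share exons and are uncertain. Ces2a was most like Ldah (0.142), a lipid droplet hydrolase, Dnase2b (0.152) and Zkscan3 (0.154). Ces1e and Ces2e had Aldh1a7 (0.188 and 0.192) and Cfap54 (0.190 and 0.162) in common. Cfap54 had few reads, and its log2 fold changes between the sexes were larger than theirs, at -1.55 in WT and -2.31 in KO mice.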

How the data were processed

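Liver RNA of 24 mice was sequenced, 1 library each. From stranded mRNA libraries the authors obtained 100 bp single-end reads in a single multiplex, which were trimmed (fastp 0.20), aligned to GRCm38.p6 (STAR 2.7a) and counted per gene (featureCounts, versions from the submitters' processing notes). The deposited values are raw counts per Ensembl gene, not normalized and not filtered. Annotation release, strand setting and treatment of multi-mapping reads are not given in the sources used here. Of 25746 genes, 25712 were matched to GENCODE M21, from which symbols, lengths and coordinates were taken.

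Counts were analysed with edgeR 4.0.16 in R 4.3.3. A gene was kept when 6 or more libraries reached 0.66 CPM (12330 genes), libraries were scaled by TMM, and a robust quasi-likelihood model with a mean for each group was fitted to all 24 libraries, with Benjamini-Hochberg adjustment over all genes tested. CPM are TMM-scaled. DESeq2 1.42.0 was an alternative, as were other scalings, filters, dispersions, a fit of only the compared groups, removal of the Mup genes, a replicate block and leaving out each mouse. The procedure was tested on simulated data. Groups and mouse numbers come from the labels. No 2 mice within a group agreed within counting noise, the closest pair being fKO mice 2 and 3 at a chi-square of 8.07 per gene. Floors and precision of counts cover counting error only, since reads carry no molecular identifiers.

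The members and lists were chosen with earlier results of these data known. Named genes are the members, the genes of the lists and the 3 genes most like each member called in the sex comparison of WT mice. Promoter sequences come from RefSeq (GRCm38.p6).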

Additional observations from a re-analysis of the deposited data

Results flagged for a closer look

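In 3 of 40 groups of 6 mice, the mouse at the end of the range stood apart from the others by more than Dixon's critical ratio, and chance gives about 1 in 20. Ces1d was at 1817 CPM in fKO mouse 4, where the next mouse had 1210 CPM, and at 1008 CPM in mKO mouse 3, where the next had 850.0 CPM. Ces3a was at 1952 CPM in mWT mouse 1, the lowest of that group, where the next had 2317 CPM. Without mWT mouse 1 the log2 fold change of Ces3a between fWT and mWT was -1.075 (adjusted p = 1.04e-06), and the Ces1d values without fKO mouse 4 stand in the report.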

How the results depend on the processing

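The counts of called members kept within 1.5 times under every setting tried: 0 in each KO comparison and in the interaction, 7 or 8 in fWT against mWT (6 to 8 with single mice left out) and 7 or 8 in fKO against mKO (7 or 8 with single mice left out). Of 660 log2 fold changes between the sexes recomputed, none changed direction. DESeq2 (adjusted p = 0.0445) and a fit of only the groups compared (0.0306) called Ces3b in WT mice, and Ces1f in KO mice passed without fKO mouse 4 (0.0336). In KO mice Ces1d was lost without a filter on low counts (0.0748) and with the replicate number as a block (0.0915). The same number marks different mice in each group, and correlations of their deviations ran from -0.379 to 0.248. Whether mice with the same number shared a litter, cage or batch was not tested. The replicate block gave 7 members in each sex comparison and 0 in the KO comparisons.

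Among fold changes, directions turned only for KO effects and interactions, none of which passed the test. In mKO against mWT, Ces1d was at -0.0033 and turned to 0.000611 without a filter and to 0.0064 with the replicate block, and with single mice left out values ran from -0.078 to 0.086 for Ces1d, from -0.16 to 0.022 for Ces1b, from -0.0077 to 0.11 for Ces2a and from -0.061 to 0.039 for Ces3a. In fKO against fWT they ran from -0.060 to 0.056 for Ces1b, from -0.0023 to 0.047 for Ces1c, from -0.0029 to 0.22 for Ces1d, from -0.066 to 0.10 for Ces2e and from -0.051 to 0.16 for Ces3b. The interaction ran from -0.16 to 0.019 for Ces1b, from -0.24 to 0.0011 for Ces1d, from -0.016 to 0.16 for Ces1e, from -0.011 to 0.11 for Ces1g and from -0.080 to 0.048 for Ces2a. The mean of both KO effects ran from -0.078 to 0.013 for Ces1b, from -0.0023 to 0.12 for Ces1d and from -0.071 to 0.035 for Ces3b. Counts of members by unadjusted p moved with single mice, as given in the report. Under 0.05 in males the count was also 1 with the replicate block or a fit of only the groups compared, and for the mean of both KO effects it was 1 with DESeq2, its size factors, no filter, another filter or the Mup genes removed.

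With CPM of total counts in place of TMM, 6 pairs of members were again called by r, and r turned for Ces1c and Ces1d (-0.126), Ces1b and Ces2e (-0.0166) and Ces2a and Ces3b (0.061). The sum of the members in fWT moved to 9749 CPM. The cause of these changes was not tested. With 6 mice per group, the unadjusted intervals given show which differences remain possible. They are not limits of detection, as Ces1f and Ces2e in males had intervals above 0 but did not pass an adjusted p of 0.05. Reads shared by paralogs limit Ces3a, Ces3b and Ces2a most.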
